A study of Mus musculus and Rattus norvegicus with 30 samples.

Results

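A set of 9 genes of the NADPH oxidase family were followed through dorsal root ganglia (DRG), which hold the cell bodies of sensory neurons, of injured and sham-operated mice and rats. They were the DUOX maturation factors Duoxa1 and Duoxa2, the dual oxidases Duox1 and Duox2, the oxidases Nox1 and Nox4, and 3 parts of the phagocyte oxidase, Cybb, Cyba and Ncf1. The genes were taken by symbol from 54315 mouse features and 39281 rat features, where a feature is an annotated gene or an assembled long noncoding RNA. The set was drawn around Duoxa1, which had been selected on its mouse counts, because its injury change differed between the strains. Mouse injury and strain values of Duoxa1 are therefore given without a test, and so are the strain-by-injury values of all members. The other members were also chosen with earlier results of these data known, so their tests are not independent of that choice. At least 1 count was present for 9 of the 9 genes in mouse and for 7 of the 9 in rat.

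Mouse libraries were made from pooled L3 and L4 DRG of 1 animal each, dissected 28 days after surgery from BALB/c and B10.D2 mice that had been obtained at 4 to 8 weeks of age and operated on as adults. In spared nerve injury (SNI) the common peroneal and sural nerves are cut and the tibial nerve is kept, so that each ganglion holds both cut and uncut neurons. In BALB/c there were 6 sham and 4 SNI libraries, and in B10.D2 there were 5 of each, of both sexes and without ribosomal RNA. Rat libraries were polyadenylated RNA from L5 DRG of male Wistar rats, 3 animals to a library, 21 days after L5 spinal nerve transection (SNT) or a sham operation, with 4 libraries in each group. The age of the rats was not given in the sources used here, and the labels name no transgene and no added agent. Mouse libraries held 30.0 to 41.9 M counts (M, mega) and rat libraries 12.0 to 17.9 M. Levels are given as counts per M (CPM) after TMM scaling, a correction for library composition, and were not compared between the species because the libraries were made in different ways. All 10 injury markers of axotomised neurons were called higher (edgeR adjusted p under 0.05) in BALB/c SNI. In B10.D2 SNI 10 of 10 had a log2 change above 0 and 9 were called higher, and in rat SNT 6 of the 6 tested were called higher. Summed sensory neuron markers lay between 8219 and 10090 CPM in every mouse library and between 3976 and 8728 CPM in the rat libraries. The mouse medians were 9655 CPM in BALB/c sham, 8517 in BALB/c SNI, 9862 in B10.D2 sham and 8624 in B10.D2 SNI. In each strain 2 of 12 were called lower in SNI, beside 9.69% of all features called in BALB/c and 4.58% in B10.D2. Several rat marker genes, including the neuronal genes Tubb3 and Uchl1, were listed at 0 in the rat table.

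NADPH oxidases are membrane enzymes whose main known task is to make reactive oxygen species. An electron is carried from NADPH across the membrane to oxygen, which gives superoxide or, for the dual oxidases and Nox4, hydrogen peroxide. The dual oxidases leave the endoplasmic reticulum and reach the cell surface only with a partner, Duoxa1 for Duox1 and Duoxa2 for Duox2, and are best known from thyroid and from airway and gut epithelium. Cybb is the catalytic subunit of the phagocyte enzyme, Cyba is the membrane partner that stabilises it and also serves Nox1 and Nox4, and Ncf1 is the cytosolic organiser that starts the burst. In ganglia the phagocyte genes are typical of resident and recruited macrophages and of neutrophils.

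The 4 dual oxidase genes lie side by side on mouse chromosome 2 (mm10, GENCODE M21), as 2 pairs of an enzyme and its partner that are read away from each other. Duox2 runs from 122279247 to 122298449 on the minus strand and Duoxa2 from 122298900 to 122302885 on the plus strand, with 450 bases between them. Duoxa1 spans 122302191 to 122313730 on the minus strand and Duox1 122315672 to 122347972 on the plus strand, with 1941 bases between them. The 3′ ends of Duoxa2 and Duoxa1 overlap by 695 bases on opposite strands. The libraries kept strand, but whether the counting used it is not stated in the sources used here, so reads from this overlap cannot be told apart if it did not. No assembled long noncoding RNA lay within 10000 bases of any of the 9 genes. Each of the 9 genes matched a start site in RefSeq, and the 250 bases before the start are shown for the dual oxidase genes because 3 of these 4 genes had the largest fitted injury changes among the members in BALB/c. Sequences are on the gene's own strand of GRCm38.p6. The RefSeq start of Duox2 lies inside the GENCODE span given above, and so does most of its window. Capitals mark matches to 6 short motifs, searched on both strands. They were the AP-1 site TGANTCA, the cyclic AMP response element TGACGTNA and the core GAGGAA of PU.1, a factor of blood cells. The other 3 were promoter elements, namely the TATA box, written TATAAA, the element known as the CCAAT box, and the GC box, written GGGCGG.
Duoxa1, chr2:122313731-122313980, minus strand: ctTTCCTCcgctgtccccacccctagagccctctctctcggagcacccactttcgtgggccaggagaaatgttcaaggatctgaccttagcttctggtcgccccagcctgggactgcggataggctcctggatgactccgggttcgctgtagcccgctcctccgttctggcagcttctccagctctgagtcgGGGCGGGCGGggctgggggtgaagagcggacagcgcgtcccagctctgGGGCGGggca
Duox1, chr2:122315422-122315671, plus strand: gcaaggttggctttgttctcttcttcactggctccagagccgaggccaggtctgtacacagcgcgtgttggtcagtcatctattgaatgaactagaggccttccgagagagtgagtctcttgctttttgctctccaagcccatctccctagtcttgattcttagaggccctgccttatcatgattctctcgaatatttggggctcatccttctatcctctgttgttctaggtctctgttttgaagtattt
Duoxa2, chr2:122298650-122298899, plus strand: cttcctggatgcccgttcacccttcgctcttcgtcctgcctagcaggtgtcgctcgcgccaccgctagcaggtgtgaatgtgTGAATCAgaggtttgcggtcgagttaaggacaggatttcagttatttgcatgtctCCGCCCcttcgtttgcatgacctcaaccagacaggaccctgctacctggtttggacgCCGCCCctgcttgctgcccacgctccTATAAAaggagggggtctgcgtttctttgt
Duox2, chr2:122298228-122298477, minus strand: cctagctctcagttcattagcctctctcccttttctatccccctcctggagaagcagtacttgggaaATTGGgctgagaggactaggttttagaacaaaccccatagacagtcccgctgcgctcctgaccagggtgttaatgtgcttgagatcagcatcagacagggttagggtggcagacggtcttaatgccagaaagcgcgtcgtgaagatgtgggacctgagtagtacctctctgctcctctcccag

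The 4 windows shared no motif as a set. Duoxa1 held 3 GC boxes, of which 2 overlapped, and 1 PU.1 core, and was 65.6% G and C. The Duox1 window was 47.6% G and C and held none of the 6 motifs. Duoxa2 held an AP-1 match at bases 168 to 162 before the start, 2 GC boxes and a TATA box at bases 30 to 25, and Duox2 held 1 CCAAT on the opposite strand. Among 32851 mouse windows of the same length, 6.75% held the AP-1 letters, 2.52% the cyclic AMP response element, 23.3% the PU.1 core, 12.4% TATA, 33.8% CCAAT and 32.7% the GC box. A match is a run of letters and was not tested as a binding site.

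The phagocyte genes were the most abundant members per length and the dual oxidase genes were among the least. Over the 20 mouse libraries the level per kilobase of exon was 6.77 ± 1.60 CPM for Cyba, 2.66 ± 0.857 for Cybb, 2.21 ± 0.856 for Ncf1, 0.543 ± 0.164 for Nox4, 0.250 ± 0.174 for Duoxa1, 0.116 ± 0.0655 for Duox1, 0.0798 ± 0.0446 for Nox1, 0.0374 ± 0.0173 for Duox2 and 0.0200 ± 0.0218 for Duoxa2 (SD, n = 20). Cyba was above Cybb, and Ncf1 above Nox4, in 20 of 20 libraries. Neighbours in the lower part of the order overlapped within their spread: Duox1 was above Nox1 in 13 libraries, Nox1 above Duox2 in 15 and Duox2 above Duoxa2 in 14. The order also turned within a group: in BALB/c sham, Nox1 averaged 0.0864 CPM per kilobase, above Duoxa1 at 0.0615 and Duox1 at 0.0451. Nox1 shares 13034 bases of its span with Xkrx on the same strand, so its counts in mouse are uncertain. On the opposite strand, Nox1 also shares 20528 bases with Arl13a and 399 with Cstf2. Cyba shares 8155 bases, its whole span, with Gm20388, and Ncf1 shares 4303 bases with Gtf2ird2, both on the opposite strand. Whether the counting used strand is not stated, so the level of Cyba in mouse is uncertain too.

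The first comparison asked which members differed between SNI and sham in BALB/c. The study found this strain more sensitive to touch after SNI, as had been described earlier. Duoxa1 had 0.238, 0.251, 0.314, 0.195, 0.298 and 0.171 CPM in sham libraries 50, 51, 55, 56, 57 and 71, which were 6 to 13 counts each. SNI libraries 49, 64, 65 and 70 had 2.37, 1.75, 2.07 and 2.35 CPM, or 70 to 83 counts. The groups lay far apart, with the lowest SNI library above the highest sham library, and the fitted difference was 8.58-fold (log2 3.10, SE 0.168). That difference belongs to the selection of Duoxa1 and carries no test.

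Duox1, the oxidase that Duoxa1 matures, rose. Sham libraries held 0.179 to 0.285 CPM with a median of 0.245, and SNI libraries 49, 64, 65 and 70 held 0.908, 0.752, 0.856 and 1.45 CPM. No sham library reached the lowest SNI library, and the male SNI library 70 was the highest of the group. The fold was 4.13 (log2 2.04, SE 0.258, edgeR adjusted p = 2.02e-05). The count behind it was 52 read pairs over 6 sham libraries and 142 over 4 SNI libraries. Duox1 lies next to Duoxa1, and its log2 levels ran like those of Duoxa1 over the 20 libraries (Pearson r = 0.883). The Duox1 test is therefore not independent of the selection of Duoxa1.

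Duox2 rose by a smaller margin. It held 0.112 to 0.290 CPM in sham with a median of 0.205, and 0.324, 0.451, 0.544 and 0.312 CPM in SNI libraries 49, 64, 65 and 70. The lowest SNI library stood just above the highest sham library, and the log2 change was 1.05 (SE 0.326, edgeR adjusted p = 0.0459). That call was lost in 15 of 20 fits that left out 1 library, with log2 changes of 0.90 to 1.18 over all 20. It was kept without BALB/c sham 50 or 55, B10.D2 sham 58 or 60, or B10.D2 SNI 69. Sham libraries 50 and 55 held the highest BALB/c sham values of Duox2, 0.238 and 0.290 CPM, so leaving either out raises the change. The call was also lost in DESeq2 (adjusted p = 0.0644) and in edgeR with no filter on low counts (adjusted p = 0.082). Duox2 had 10 to 21 counts in BALB/c SNI libraries, 4 to 12 in BALB/c sham and 1 to 9 in B10.D2 sham. It thus passed the filter mainly through SNI libraries, where it was higher, and the test is not free of that choice. Duoxa2, the partner of Duox2, stayed at 0 to 2 counts in BALB/c sham and at 0 or 1 count in BALB/c SNI, and was too low to test in mouse. A library with no count allows up to 3 counts, or 0.0716 to 0.100 CPM, so a small change of Duoxa2 was not detectable at this depth.

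**Figure D1:**
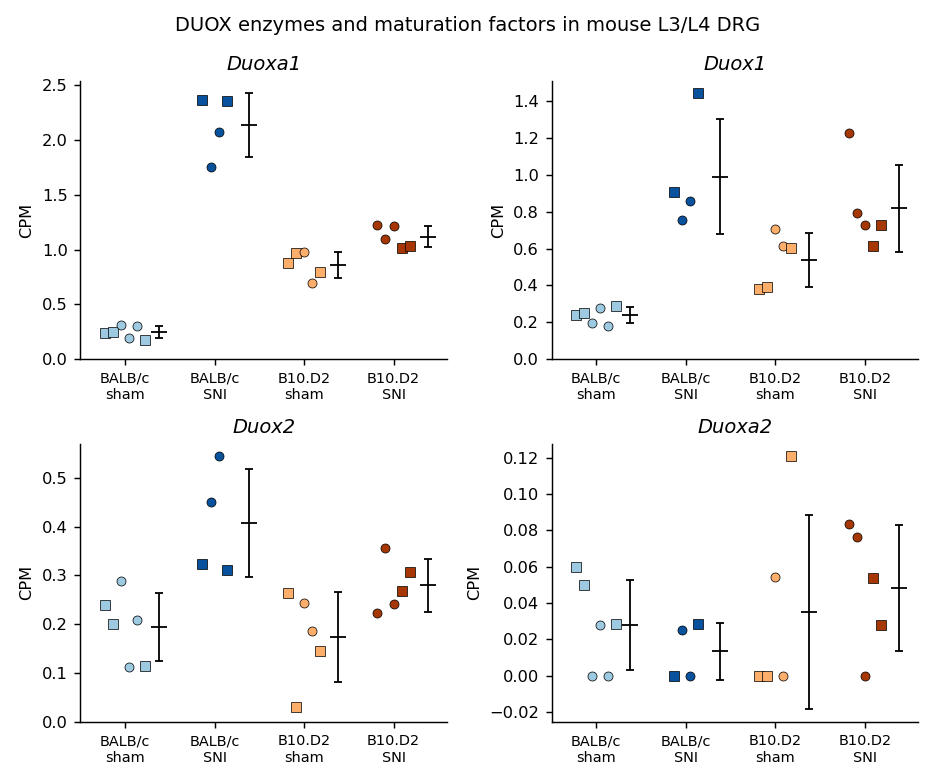
Level of the 4 dual oxidase genes (CPM, vertical axis) in each mouse library by group (horizontal axis), with squares for males, circles for females and the mean ± SD beside each group. Duoxa1 stood at 0.171 to 0.314 CPM in BALB/c sham and at 1.75 to 2.37 CPM in BALB/c SNI, with both B10.D2 groups between them.

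The phagocyte genes were higher on average in BALB/c SNI, but with overlap. Cybb held 23.1, 8.27, 19.6, 10.7, 10.2 and 9.59 CPM in sham libraries 50, 51, 55, 56, 57 and 71, and 27.6, 15.2, 19.9 and 15.2 CPM in SNI libraries 49, 64, 65 and 70. Sham libraries 50 and 55 lay within the SNI range and the other 4 lay below it. Log2 changes were 0.52 for Cybb (SE 0.245, edgeR adjusted p = 0.204), 0.48 for Cyba (SE 0.163, adjusted p = 0.0691) and 0.71 for Ncf1 (SE 0.238, adjusted p = 0.0650). Ncf1 reached 18.7 CPM in SNI library 49 and 7.77 to 11.02 CPM in the other 3 SNI libraries, against 4.66 to 11.1 CPM in sham. Cyba held 3.96 to 7.69 CPM in sham and 7.12 to 9.05 CPM in SNI.

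Macrophage and neutrophil marker sums were high in some of the same libraries. The 14 macrophage markers summed to 315 CPM in sham library 50 and 350 in sham library 55, against 146 to 207 in the other 4 sham libraries and 289 to 427 in SNI. The 10 neutrophil markers summed to 257 and 137 CPM in sham libraries 50 and 55, 37.9 to 54.7 in the other sham libraries, and 72.3 to 424 in SNI, where library 49 was the highest. Of the macrophage markers 5 of 14 were called higher in BALB/c SNI by edgeR, beside 4.82% of all features. None of 10 neutrophil markers was called by edgeR or DESeq2, with 2 of them at an unadjusted p under 0.05, beside 5739 of all 24685 features. Satellite glia markers also lay apart in BALB/c, at 1176 to 1299 CPM in sham and 1311 to 1544 CPM in SNI with 2 of 6 called higher, and at 1143 to 1184 and 1156 to 1349 CPM in B10.D2, with 1 of 6 called higher. Sham libraries 50 and 55 held 1176 and 1197 CPM of them, in the lower part of the BALB/c sham range. In BALB/c SNI 1 of 7 endothelial and 1 of 6 fibroblast markers were called higher, and 0 of 7 Schwann cell markers were called. In these bulk ganglia more cells of a type and more RNA per cell cannot be told apart, and the part of these cells in the member values was not tested. Without sham libraries 50 and 55, which also stand apart from the other BALB/c sham libraries on the second principal component, 5 members passed the test. Those were Duox1 (log2 1.97), Duox2 (1.32), Cybb (1.004, edgeR adjusted p = 0.000797), Cyba (0.68, adjusted p = 0.00629) and Ncf1 (1.08, adjusted p = 0.00239). These 2 libraries are the highest of the BALB/c sham libraries for Duox2, Cybb, Cyba and Ncf1. The larger values of these genes therefore follow from the removal and lend them no support. Leaving out sham library 50 alone also gave 5 calls, and leaving out sham library 55 or SNI library 70 brought Ncf1 past the threshold (log2 0.83 and 0.87).

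Nox4, a constitutively active oxidase, and Nox1, its inducible relative, showed no called difference in BALB/c. Nox4 held 3.46 to 7.55 CPM in sham and 2.58 to 6.95 CPM in SNI, with a log2 change of -0.21 (SE 0.233, edgeR adjusted p = 0.654). The highest library of each group, sham 55 and SNI 65, was from a female. Nox1 held 0.0895 to 0.485 CPM in sham and 0.104 to 0.616 CPM in SNI (log2 0.36, SE 0.369, adjusted p = 0.616). In all, 2 of the 7 members with a test were called in BALB/c, both higher in SNI. Over all 24685 features tested 9.69% were called and 4.82% were called higher. The median log2 change of the 7 was 0.52, beside 0.00 for all features.

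**Figure D2:**
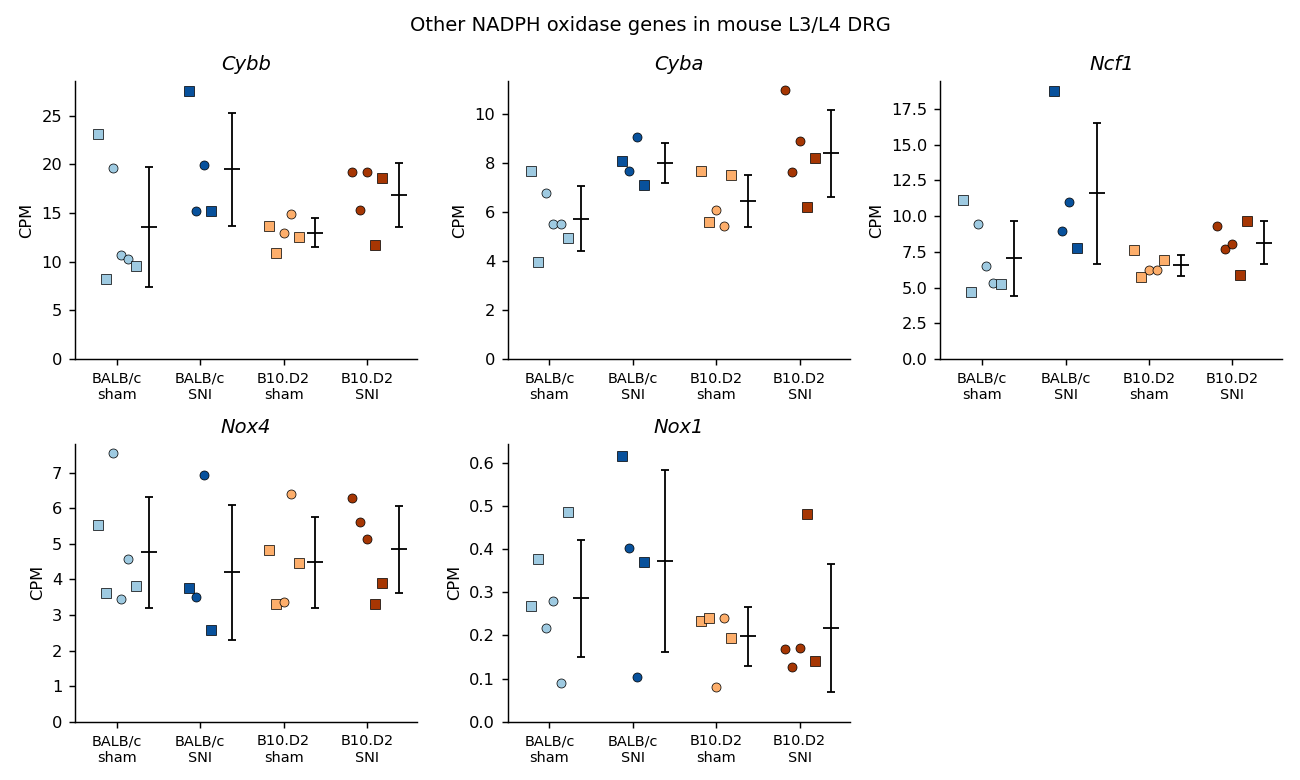
Level of Cybb, Cyba, Ncf1, Nox4 and Nox1 (CPM, vertical axis) in each mouse library by group (horizontal axis), with squares for males, circles for females and the mean ± SD beside each group. In every panel the groups overlap, and BALB/c sham libraries 50 and 55 are the 2 highest of their group for Cybb at 23.1 and 19.6 CPM.

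B10.D2 mice, the less sensitive strain in the study and in earlier work, gave smaller differences. Duoxa1 held 0.877, 0.965, 0.978, 0.692 and 0.797 CPM in sham libraries 58, 60, 67, 77 and 88, and 1.23, 1.10, 1.21, 1.02 and 1.04 CPM in SNI libraries 69, 76, 78, 89 and 90. These groups did not overlap either, but the gap was narrow and the fitted difference was 1.30-fold (log2 0.38, SE 0.154). Duox1 held 0.380 to 0.706 CPM in sham and 0.616 to 1.23 CPM in SNI, where library 69 stood above the other 4. Its log2 change was 0.57 (SE 0.238, edgeR adjusted p = 0.207).

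No member passed the edgeR test in B10.D2, where 4.58% of all features were called. DESeq2 also called none, but it gave no adjusted p for Nox1 or Duox2. The unadjusted edgeR p was under 0.05 for 2 of the 7 members with a test, Duox1 and Cyba, beside 4149 of all 24685 features. Duox2 had a log2 change of 0.62 (SE 0.349, edgeR adjusted p = 0.396), and the 3 phagocyte genes had 0.33 to 0.36 (adjusted p = 0.272 to 0.552). Cyba reached 11.0 CPM in SNI library 69 and held 6.21 to 8.92 CPM in the other 4 SNI libraries, against 5.43 to 7.69 CPM in sham. Nox1 had 0.28 (SE 0.416, adjusted p = 0.805) and Nox4 0.0003 (SE 0.245, adjusted p = 0.9998). Macrophage markers summed to 270 to 319 CPM in B10.D2 sham and 285 to 489 CPM in B10.D2 SNI, and edgeR called none of the 14, although 10 had an unadjusted p under 0.05 and DESeq2 called 2. Duoxa2 stayed between 0 and 5 counts in the B10.D2 libraries.

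The next comparison set the strains side by side, sham with sham and SNI with SNI. In sham mice Duox1 was higher in B10.D2: the lowest B10.D2 library, at 0.380 CPM, stood above the highest BALB/c library, at 0.285 CPM. The fold was 2.27 (log2 1.18, SE 0.263, edgeR adjusted p = 0.00200, with the limit given above for the Duox1 injury test). Duoxa1 showed the same order with a wider gap, 0.692 to 0.978 CPM in B10.D2 against 0.171 to 0.314 CPM in BALB/c, a fitted 3.46-fold difference (log2 1.79, SE 0.176) that carries no test. Duox1 was the 1 member called of 7 with a test, where 21.6% of all features were called and 11.5% were called higher in B10.D2. Duox2 had a log2 difference of -0.14 (SE 0.353, adjusted p = 0.845), and its B10.D2 sham libraries ran from 0.0301 to 0.263 CPM, the lowest of them resting on 1 count.

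The other members gave log2 strain differences in sham of -0.59 for Nox1 (SE 0.382), -0.12 for Ncf1 (SE 0.231), -0.06 for Cybb (SE 0.235), -0.04 for Nox4 (SE 0.217) and 0.19 for Cyba (SE 0.156), with edgeR adjusted p of 0.313 to 0.930. Without BALB/c sham libraries 50 and 55 these values turned positive for Cybb (0.43), Ncf1 (0.26), Nox4 (0.25) and Duox2 (0.15), and none of them was called. Beside these, 6 of 14 macrophage markers were called higher and 3 of 10 neutrophil markers lower in B10.D2 sham than in BALB/c sham, and their part in the member values was not tested.

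In SNI mice the order of Duoxa1 was turned around. BALB/c SNI libraries held 1.75 to 2.37 CPM and B10.D2 SNI libraries 1.02 to 1.23 CPM, so that every BALB/c library stood above every B10.D2 library (log2 -0.93, SE 0.151, no test). Duox1 overlapped, with 0.752 to 1.45 CPM in BALB/c and 0.616 to 1.23 CPM in B10.D2 (log2 -0.29, SE 0.237, edgeR adjusted p = 0.452). No member passed the edgeR test or DESeq2 among the SNI mice, where 20.8% of all features were called. None had an unadjusted p under 0.05, beside 7917 of all 24685 features. Log2 differences were -0.67 for Nox1 (SE 0.398), -0.56 for Duox2 (SE 0.323), -0.50 for Ncf1 (SE 0.249, adjusted p = 0.177), -0.22 for Cybb (SE 0.256), 0.06 for Cyba (SE 0.169) and 0.17 for Nox4 (SE 0.241). Beside the lower Ncf1 and Cybb values, 10 of 10 neutrophil markers were lower in B10.D2 SNI than in BALB/c SNI, with sums of 21.9 to 44.2 CPM against 72.3 to 424 CPM, and 3 of 14 macrophage markers were higher. The part of these cells in the member values was not tested. Reads of both strains were aligned to 1 reference genome, so that a difference in level and a difference in how well reads align cannot be told apart in any strain comparison.

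Genes next to the dual oxidase cluster also differed between the strains. Over all features 21.6% were called between sham strains, 11.5% of them higher in B10.D2 as a share of all, and 20.8% between SNI strains. In sham mice 6 of the 6 neighbours tested were higher in B10.D2: Slc28a2, a nucleoside transporter (log2 1.60, SE 0.330, edgeR adjusted p = 0.00101), Sord, sorbitol dehydrogenase (0.62, SE 0.0532, adjusted p = 1.11e-08), B2m, the light chain of class I histocompatibility molecules (0.62, SE 0.109, adjusted p = 0.000218), and Gatm, Shf and Slc30a4 by 0.15 to 0.38. After SNI, 4 of the 6 were still called higher in B10.D2, Slc28a2, Sord, B2m and Shf, and none was called lower, whereas the fitted value of Duoxa1 was below 0. For injury in BALB/c, Gatm (0.33) and Slc30a4 (0.16) were called higher and Sord (-0.35) and Shf (-0.36) lower. Slc28a2 had 0.86 (SE 0.368, adjusted p = 0.156), near the 1.05 of Duox2. Over all features 9.69% were called for injury in BALB/c. An unadjusted p under 0.05 was found for 6 of the 6 neighbours, beside 5739 of all 24685 features. In B10.D2 only Sord was called by edgeR among the 6 (-0.26), beside 4.58% of all features, and DESeq2 called 3 of the 6.

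**Figure D3:**
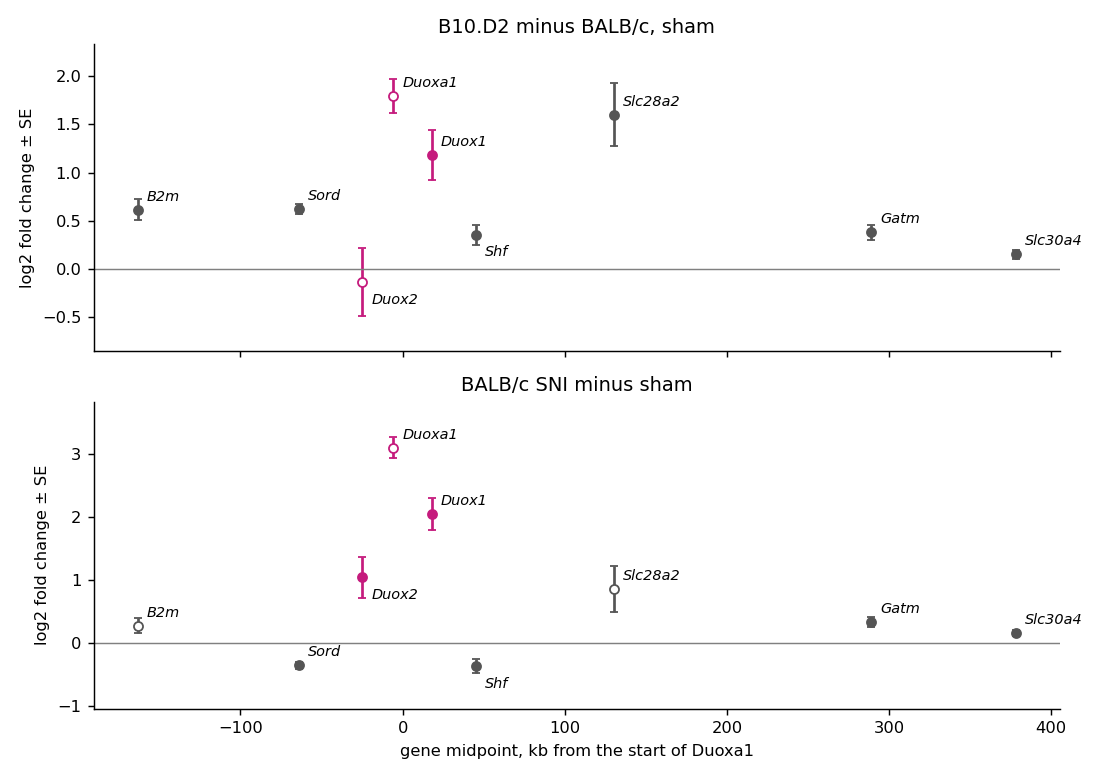
The log2 fold change (vertical axis, ± SE) of the dual oxidase genes, in pink, and of their neighbours, in grey, against the distance of the gene midpoint from the start of Duoxa1 (kb, horizontal axis), for B10.D2 over BALB/c in sham and for SNI over sham in BALB/c. Filled points were called, and Duoxa1 is open because it was not tested. Duoxa1 at 3.10 and Duox1 at 2.04 stand above their neighbours in the injury panel, and in the sham strain panel 6 of 6 neighbours lie above 0.

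The strain-by-injury values, the change in B10.D2 minus the change in BALB/c, are those on which Duoxa1 had been selected and are a description. Duoxa1 had a log2 value of -2.72 (SE 0.232) and Duox1 one of -1.47 (SE 0.355). The remaining 6 fitted members lay between -0.43 for Duox2 (SE 0.483) and 0.21 for Nox4 (SE 0.325), and the median of the 8 was -0.27. Over all features 0.0243% were called in this contrast. The 10 injury markers had a median of -0.45, and 1 of them was called, lower. An unadjusted edgeR p under 0.05 was found for 6 of the 10, beside 1073 of all 24685 features. The part of this general injury response in the member values was not tested. Without BALB/c sham libraries 50 and 55 the values were -2.81 for Duoxa1, -1.40 for Duox1, -0.65 for Cybb and -0.76 for Ncf1. Fitted in males alone Duoxa1 had -3.17 and in females alone -2.31, and Duox1 followed the same direction in both. Of features averaging 1 CPM or more, the 5 whose log2 levels ran most like Duoxa1 over the 20 libraries were Ly6a, a surface antigen of blood and endothelial cells (Pearson r = 0.933), Dnah5, an axonemal dynein (0.890), Slc15a3, a lysosomal transporter (0.888), the kinase Ptk2 (0.883) and ENSMUSG00000105526 (0.871). Ly6a averaged 5.11 CPM in BALB/c sham, 26.1 in BALB/c SNI, 13.1 in B10.D2 sham and 20.5 in B10.D2 SNI, the same order of groups as Duoxa1. Duox1, whose mean was under 1 CPM, had r = 0.883 with Duoxa1, and Duox2 had 0.588, Cyba 0.624, Ncf1 0.536 and Cybb 0.508. The libraries share strain and surgery, so these values describe group differences as well as variation within groups.

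Sex was the last mouse comparison, over 10 male and 10 female libraries across the 4 groups. No member was called by edgeR, beside 0.243% of all features, or by DESeq2, which gave no adjusted p for Nox1 or Duox2. By edgeR 2 of the 8 members with a test had an unadjusted p under 0.05, beside 2899 of all 24685 features. Nox1 held 0.140 to 0.616 CPM in males with a median of 0.318, and 0.0815 to 0.401 CPM in females with a median of 0.169 (log2 0.85, SE 0.277, edgeR adjusted p = 0.202). Nox4 held 2.58 to 5.54 CPM in males with a median of 3.79, and 3.37 to 7.55 CPM in females with a median of 5.38 (log2 -0.44, SE 0.163, adjusted p = 0.273). The sexes overlapped for both genes. Duoxa1 was at 0.171 to 2.37 CPM in males and 0.195 to 2.07 CPM in females (log2 0.00, SE 0.128, adjusted p = 0.999), and the other 5 members lay between -0.30 and 0.08. For injury in BALB/c the fitted log2 difference of Duoxa1 was 3.39 in males alone and 2.80 in females alone.

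**Figure D4:**
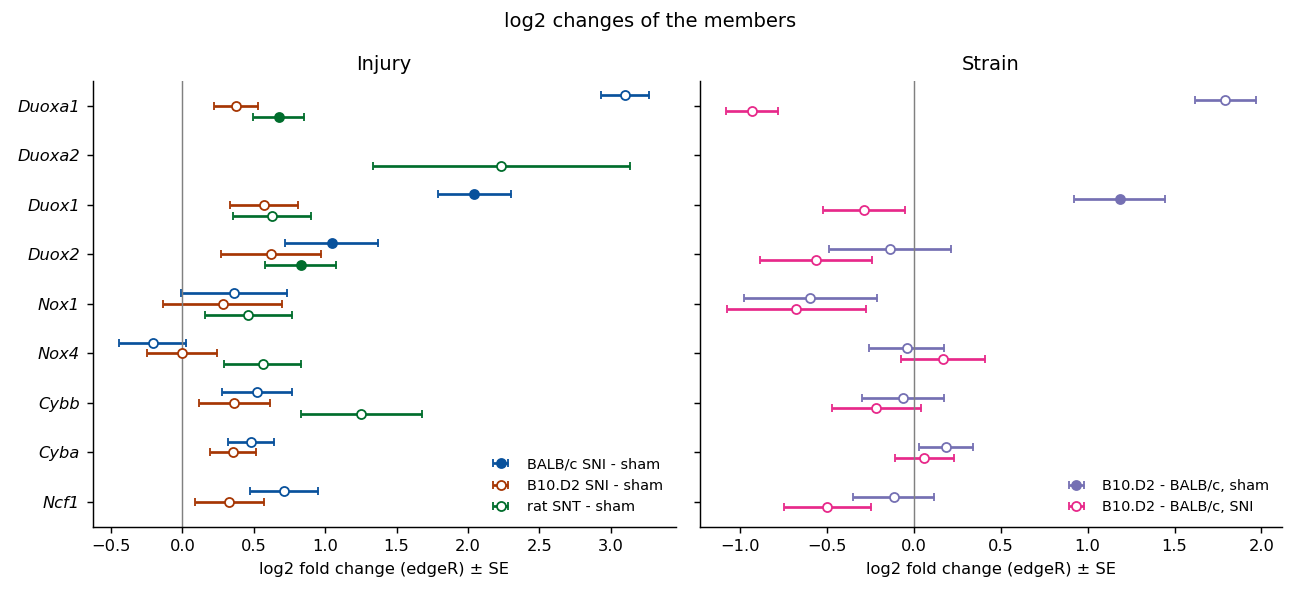
The log2 fold change ± SE (horizontal axis) of each member (vertical axis) for injury, at left, and for B10.D2 over BALB/c, at right. Filled points were called by edgeR, and mouse values of Duoxa1 are open because they were not tested. Duoxa1 at 3.10 and Duox1 at 2.04 in BALB/c are the farthest of the mouse injury values from 0, and Duoxa1 lies at 1.79 in sham and -0.93 in SNI between strains.

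Rat L5 ganglia 21 days after SNT gave an injury comparison in other animals, whose earlier results were also known when the genes were chosen. The library labelled sham 4 stood apart: its injury markers summed to 972 CPM, against 365 to 405 CPM in the other sham libraries and 1212 to 1733 CPM in SNT. Duoxa1 rose, from 1.82, 1.52, 2.07 and 1.89 CPM in sham libraries 1 to 4 to 2.97, 2.94, 2.72 and 3.02 CPM in SNT libraries 1 to 4. The groups did not overlap, and the fold was 1.59 (log2 0.67, SE 0.181, edgeR adjusted p = 0.0240). That call was lost in 6 of the 8 fits without 1 library, at log2 0.61 to 0.74, and was kept without sham library 4 or SNT library 1. It was also lost with a block on the first number in the library labels, which the groups share. Duox2 also rose, from 9.12, 14.4, 9.62 and 18.4 CPM to 25.3, 16.9, 20.7 and 29.0 CPM, with SNT library 2 below sham library 4. Its fold was 1.77 (log2 0.83, SE 0.249, adjusted p = 0.0351), and the call was lost in 5 of the 8 fits without 1 library, at 0.71 to 1.06 over all 8. It was kept without sham library 4, SNT library 1 or SNT library 2. These were the 2 members called of the 7 tested, both higher, where 27.4% of all 13690 features were called and 12.3% were called higher, and the median of the 7 was 0.67 beside 0.00 for all features. Per the unadjusted p, 5 of the 7 were under 0.05, beside 5815 of all 13690 features.

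Duox1 held 1.49, 2.26, 3.06 and 3.19 CPM in rat sham and 4.17, 2.67, 4.67 and 4.06 CPM in SNT, so that SNT library 2 fell among the sham libraries (log2 0.63, SE 0.272, edgeR adjusted p = 0.107). Duoxa2 had 0, 1, 0 and 13 counts in sham and 14, 7, 39 and 18 counts in SNT. Sham library 4 lay within the SNT range and the other 3 sham libraries had at most 1 count (log2 2.23, SE 0.897, adjusted p = 0.0874). Without sham library 4 Duoxa2 was called (adjusted p = 0.00593), with a fitted log2 change of 5.22 that rests on 1 count in 3 sham libraries. Cybb held 61.7, 38.4, 38.3 and 137 CPM in sham and 128, 157, 262 and 109 CPM in SNT (log2 1.25, SE 0.425, adjusted p = 0.0521). Again sham library 4 was the only sham library within the SNT range. Nox4 had a log2 change of 0.56 (SE 0.270, adjusted p = 0.140) and Nox1 one of 0.46 (SE 0.305, adjusted p = 0.273). Cyba and Ncf1 were listed at 0 in all 8 libraries, as was Rac1, a gene that nearly every cell uses, and no level is drawn from these.

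**Figure D5:**
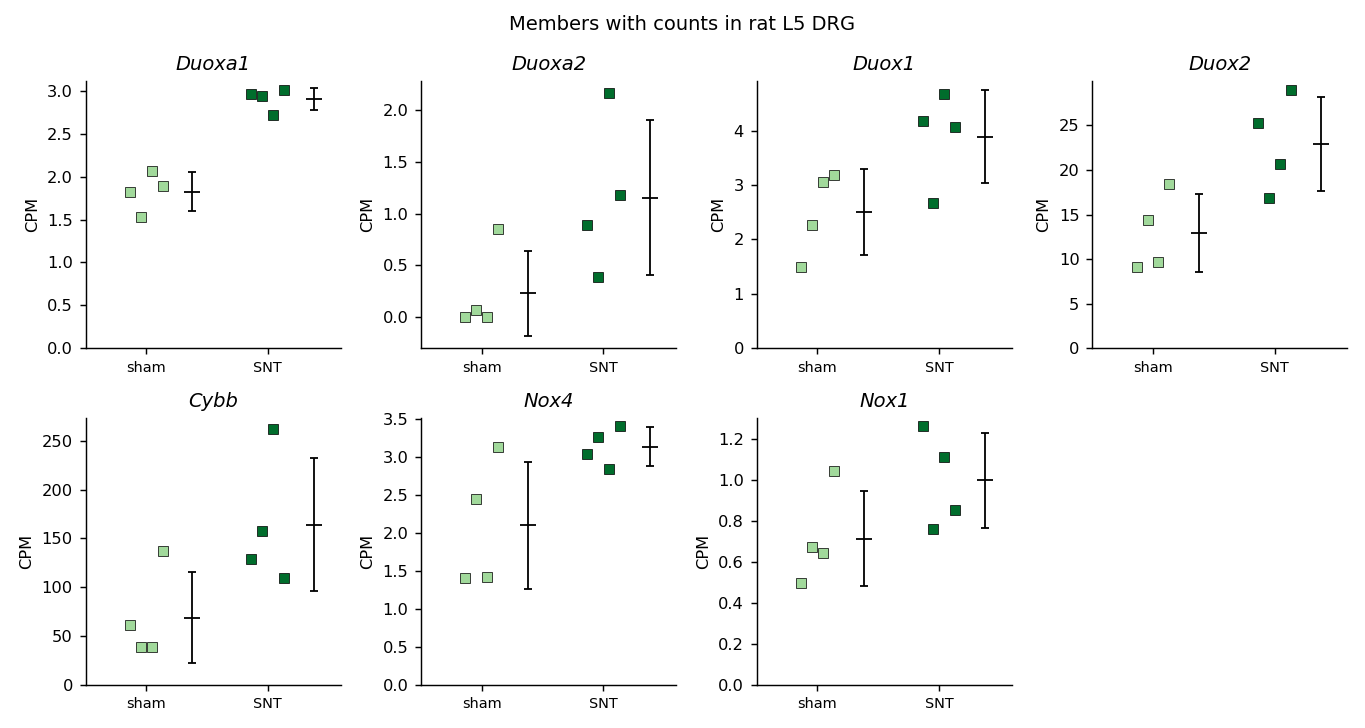
Level (CPM, vertical axis) of the 7 members with counts in each rat library, sham or SNT (horizontal axis), with the mean ± SD beside each group. Duoxa1 lay at 1.52 to 2.07 CPM in sham and 2.72 to 3.02 CPM in SNT, and sham library 4 was the highest sham library for the other 6 members.

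On the first principal component, 2 rat libraries, sham 4 and SNT 1, took places between the rest of the groups. Macrophage markers with counts summed to 2010 CPM in sham library 4, against 468 to 846 CPM in the other sham libraries and 1736 to 2538 CPM in SNT, and 1 of the 9 tested was called. Neutrophil markers summed to 15.9 to 29.6 CPM over all 8 rat libraries. Other cell types differed as well. Of the sensory neuron markers 3 of 6 were called lower in SNT, with sums of 6208 to 8728 CPM in sham and 3976 to 7501 CPM in SNT, where library 1 was the highest. Fibroblast markers summed to 2979 to 5332 CPM in sham and 6625 to 10790 CPM in SNT (2 of 4 called higher), and 2 of 3 Schwann cell markers were called higher. Satellite glia markers summed to 984 to 1188 CPM in sham and 1313 to 1958 CPM in SNT, with 1 of 2 called higher and 1 lower. Without sham library 4 and SNT library 1 together, 4 members were called: Cybb (log2 1.94, edgeR adjusted p = 0.000950), Duox2 (1.0025, adjusted p = 0.00789), Nox4 (0.83, adjusted p = 0.0318) and Duoxa1 (0.69, adjusted p = 0.0334). Leaving out sham library 4 alone gave 5 calls, those 4 and Duoxa2, leaving out SNT library 1 alone gave 3, and leaving out SNT library 2 alone gave 1. Leaving out sham library 1, 2 or 3 or SNT library 3 or 4 gave none. Sham library 4 is the highest sham library for 6 of the 7 members, so larger values without it follow from its removal. The part of these cell types in the member values was not tested.

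Other genes of the pathway were counted as well. Of the other oxidase subunits, none of the 6 tested was called by edgeR or DESeq2 in any mouse comparison. An unadjusted p under 0.05 was found for 1 between sham strains, 3 between SNI strains and 0 in the others. Over all 24685 features it was found for 7808 between sham strains and 7917 between SNI strains. Ncf4, a cytosolic partner of Ncf1, had log2 changes of 0.63 in BALB/c (SE 0.346, edgeR adjusted p = 0.289) and 0.56 in B10.D2 (SE 0.378, adjusted p = 0.505). In rat 2 of 3 were called, beside 27.4% of all features, Rac2, the blood-cell GTPase of the phagocyte enzyme (1.24, SE 0.294, adjusted p = 0.0165), and Ncf4 (0.86, SE 0.235, adjusted p = 0.0250), both higher in SNT. Among haem peroxidases, Pxdn, which cross-links collagen, was higher in BALB/c SNI (0.27, SE 0.0718, adjusted p = 0.0193). The granule enzyme Mpo was lower in B10.D2 than in BALB/c among sham mice (-2.25, SE 0.782, adjusted p = 0.0439) and among SNI mice (-2.98, SE 0.858, adjusted p = 0.0160). Pxdn was lower in B10.D2 as well, in sham (-0.22, adjusted p = 0.0232) and in SNI (-0.39, adjusted p = 0.000621), and the eosinophil peroxidase Epx was lower in B10.D2 SNI (-2.08, SE 0.710, adjusted p = 0.0411).

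Genes that remove superoxide and peroxide were called about as often as all features for injury in BALB/c, 3 of 26 beside 9.69%. Of the 26, 10 had an unadjusted p under 0.05, beside 5739 of all 24685 features. Srxn1, which repairs peroxiredoxins, was higher (log2 0.39, SE 0.0647, edgeR adjusted p = 0.000387), as was Prdx6 (0.22, adjusted p = 0.00650), and Gclm, a subunit of the glutathione-making enzyme, was lower (-0.31, adjusted p = 0.00179). Gclm was also the 1 gene of 26 called in B10.D2, beside 4.58% of all features (-0.24, adjusted p = 0.0199). In rat 6 of 16 were called, beside 27.4% of all features, 1 higher and 5 lower, and Gclm (-0.86, SE 0.188, adjusted p = 0.0138) was again lower. Between sham strains 7 of 26 were called, beside 21.6% of all features, and the 7 were lower in B10.D2, with Sod3, the extracellular superoxide dismutase, at -1.04 (SE 0.101, adjusted p = 8.65e-08) and Prdx2 at -0.67 (SE 0.0522, adjusted p = 2.59e-09). Among SNI mice 9 of 26 were called, beside 20.8% of all features, 8 lower in B10.D2 and 1, Gpx3, higher.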

How the data were processed

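Per the study's methods, strand-specific paired-end reads of 100 bases were aligned with STAR to mm10 or rn6 and counted over features with HTSeq. The deposited count tables hold raw counts, which the authors had not normalised. The deposited result tables of the authors hold DESeq2 fold changes and p-values, of which only the symbols were used. Libraries 59 and 66, left out by the study, were not analysed here.

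Counts were fitted in R 4.3.3 with edgeR 4.0.16 (quasi-likelihood F test, TMM, filterByExpr, two-sided). The model of the 20 mouse libraries held sex, strain, surgery and the interaction of strain with surgery, and that of rat held surgery alone. P-values were adjusted by the Benjamini-Hochberg method over all features that passed filterByExpr, 24685 in mouse and 13690 in rat. A feature with an adjusted p under 0.05 is called, and shares of all features refer to these tested features. Mouse positions came from GENCODE M21, to which 49326 of 49585 Ensembl identifiers matched, and exon lengths for levels per kilobase too. Alternatives were DESeq2 1.42.0, other scaling and filters, annotated genes alone, no sex term, each strain alone, each sex alone, a block on the rat run number, and libraries left out singly or in pairs, the pairs and single sexes after the data were seen. The members, lists and rules for named genes (all members, the called genes of 4 pathway and locus lists, 8 marker lists by counts and sums, and the 5 features most like Duoxa1 on log2(CPM + 0.5)) were chosen with earlier results of these data known. Rat libraries are numbered in table order within a group. The first number in the rat library labels is called the run number here, although the labels do not name it. It was shared between the groups. Intervals and floors cover counting error alone.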

Additional observations from a re-analysis of the deposited data

Results flagged for a closer look

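Of 50 sets of member values within a group, 3 held a library whose gap to the next was above the 95% critical value of Dixon's test, and chance gives about 1 in 20. Duox1 was at 1.23 CPM in B10.D2 SNI library 69, above the other 4 libraries of that group. Nox1 was at 0.482 CPM in B10.D2 SNI library 89, a male, with the other 4 at 0.128 to 0.170 CPM. Duoxa2 was at 0.847 CPM in rat sham library 4, with the other 3 at 0 to 0.0610 CPM.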

How the results depend on the processing

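Rat sham and SNT libraries with the same run number did not deviate together (correlations of deviations -0.27 to 0.05). With 4 libraries in each group these correlations cannot show that the number has no part. With the replicate block by run number 1 rat member, Duox2, was called instead of 2, and Duoxa1 had an edgeR adjusted p of 0.0680. No paired analysis was possible in mouse because sample numbers are not shared between groups. Requiring at least 10 counts in every library removes Duox1 and Duox2 and left 0 calls for BALB/c injury and for strain in sham, and fitting each strain alone left 1 for BALB/c injury. Without BALB/c sham 50 and 55 there were 5 calls for BALB/c injury, the median interaction of the members was -0.68, Nox4 turned to 0.08 for BALB/c injury, and the strain difference in sham turned to 0.15 for Duox2, 0.25 for Nox4, 0.43 for Cybb and 0.26 for Ncf1. Without rat sham 4 and SNT 1 there were 4 calls. The Duoxa1 interaction was -3.17 in males alone and -2.31 in females alone.

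Leaving out 1 library gave 1 to 5 calls for BALB/c injury, 0 to 5 for rat injury, 1 for strain in sham, and 0 for B10.D2 injury, strain in SNI and sex. The median interaction of the members ran from -0.48 to -0.09 and that of Duoxa1 from -2.83 to -2.63. The other changes of sign were in values that were not called or carry no test: Nox4 in B10.D2 injury was -0.0026 with the size factors of DESeq2, -0.0024 with no filter and -0.0048 in DESeq2, Duoxa1 by sex was -0.0017 among annotated genes alone, Nox1 in B10.D2 injury was -0.064 and Duox1 by strain in SNI was 0.18 in females alone, and the Duox2 interaction was 0.18 in males alone. In females alone signs also differed by strain in sham for Duox2 (0.064), Cybb (0.041) and Cyba (-0.0435), by strain in SNI for Cybb (0.032) and in the interaction for Cyba (0.18), and in males alone for Nox4 in B10.D2 injury (-0.22), Cyba by strain in SNI (-0.074) and the Nox1 interaction (0.13). Without BALB/c sham 50 and 55 the interaction was 0.021 for Nox1 and -0.079 for Nox4. With 1 library left out, values ran across 0 in B10.D2 injury for Nox1 (-0.11 to 0.55) and Nox4 (-0.17 to 0.10), by strain in sham for Duox2 (-0.35 to 0.089), Nox4 (-0.15 to 0.11), Cybb (-0.18 to 0.20) and Ncf1 (-0.23 to 0.077), by strain in SNI for Cybb (-0.35 to 0.011) and Cyba (-0.045 to 0.16), and by sex for Duoxa1 (-0.053 to 0.038), Duox1 (-0.20 to 0.023), Cybb (-0.19 to 0.049) and Ncf1 (-0.058 to 0.16), and in the interaction for Nox1 (-0.47 to 0.21) and Cybb (-0.44 to 0.064). The call of Duox2 in BALB/c was lost with no filter (adjusted p = 0.082), in DESeq2 (0.0644) and with each strain alone (0.0623), Cyba was called with no filter and in DESeq2, Ncf1 with no filter, and rat Cybb with the size factors of DESeq2, with no filter and in DESeq2. The cause of these differences was not tested. The low counts of Duoxa2, Nox1 and Duox2 in mouse, at most 21 per library, limit what could be detected.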
